A study of Mus musculus with 2 samples.

Results

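The miR-30 family was examined as 6 microRNA genes, Mir30e, Mir30c-1, Mir30d, Mir30b, Mir30a and Mir30c-2, which were taken by name from the 1973 microRNA genes counted in embryonic mouse liver. All 6 were present in the count tables, and all 6 were detected, which meant at least 10 counts in each library. The libraries were small RNA of B6NCrl liver at embryonic day 13.5, from pooled male and female embryos, size selected below 30 bases. There were 2 of them, 1 per biosample, numbered as biological replicates 1 and 2. They formed 1 group with no treatment, so the comparisons run between members, between their 3 loci and between the libraries. The deposited tables gave 2607403 counts on the strand of the gene in replicate 1 and 4286742 in replicate 2. Levels are given in CPM, a gene's counts divided by these totals and multiplied by 1000000.

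MicroRNAs are cut from hairpin precursors into short mature strands, the 5p and the 3p arm. A mature strand loaded into an Argonaute protein represses messenger RNAs that pair with its seed, the bases near its 5′ end. The 5p arms of the miR-30 family share their seed and are therefore expected to share many targets. The family is known for restraining the change of epithelial into mesenchymal cells, in part through Snai1, and has been linked to the development of liver and bile ducts. Mir30e and Mir30c-1 lie within Nfyc, which encodes a subunit of the CCAAT-binding factor NF-Y.

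Of the 6 genes, 4 had sequences in the RefSeq microRNA table (build GRCm38.p6), and Mir30b and Mir30d did not. The 5p arms are shown because they carry the family seed, bases 2 to 8 counted from the 5′ end, which is in capitals. The arm of Mir384, a gene outside the list, is shown beside them because it has the same seed.
miR-30e-5p: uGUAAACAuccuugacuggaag
miR-30a-5p: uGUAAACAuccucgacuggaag
miR-30c-5p (Mir30c-1 and Mir30c-2): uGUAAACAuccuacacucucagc
miR-384-5p: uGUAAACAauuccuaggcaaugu
A search of the 1738 mature sequences in the table found the seed GUAAACA in 5 genes, Mir30a, Mir30c-1, Mir30c-2, Mir30e and Mir384. Counted from the 5′ end, miR-30e-5p and miR-30a-5p differed by 1 base of 22, U13C. From miR-30e-5p to miR-30c-5p there were 5 differences in 22 bases, U13A, G14C, G18C, G19U and A20C. The first 12 bases of these 3 arms were the same. The arm of miR-384-5p shared 8 bases with miR-30e-5p before the first difference and differed at 11 of 22 positions.

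The 3p arms, shown with bases 2 to 8 in capitals, fell into 2 seed groups that cut across the loci.
miR-30e-3p: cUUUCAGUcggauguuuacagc
miR-30a-3p: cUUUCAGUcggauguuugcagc
miR-30c-1-3p: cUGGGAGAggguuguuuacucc
miR-30c-2-3p: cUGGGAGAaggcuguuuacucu
The arms miR-30e-3p and miR-30a-3p differed by 1 base, A18G. The arms miR-30c-1-3p and miR-30c-2-3p differed by 3, G9A, U12C and C22U. Each count is for a whole hairpin, so reads of the 5p and the 3p arm could not be told apart.

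The hairpins are shown with their mature arms in capitals, because the stretches shared between loci bear on how reads were assigned.
Mir30e: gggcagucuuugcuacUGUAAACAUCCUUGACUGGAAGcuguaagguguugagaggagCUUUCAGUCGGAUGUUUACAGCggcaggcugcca
Mir30c-1: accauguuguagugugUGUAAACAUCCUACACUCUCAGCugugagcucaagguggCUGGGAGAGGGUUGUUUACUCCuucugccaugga
Mir30a: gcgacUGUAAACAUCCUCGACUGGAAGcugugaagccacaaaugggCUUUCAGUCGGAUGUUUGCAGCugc
Mir30c-2: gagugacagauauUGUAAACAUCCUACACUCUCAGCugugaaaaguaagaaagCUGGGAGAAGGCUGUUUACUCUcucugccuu
The longest run that the hairpins of Mir30c-1 and Mir30c-2 had in common was 28 bases, uguaaacauccuacacucucagcuguga, and it holds the whole of miR-30c-5p. A read that lies within this run matches both loci. The tables give reads that mapped to several places as a row of their own, 2819005 in replicate 1 and 4017413 in replicate 2, and assign none of them to a gene. The counts of Mir30c-1 and Mir30c-2 are therefore uncertain, and how many of the unassigned reads were miR-30c was not analysed here. Mir30e and Mir30a had a longest common run of 18 bases, gcuuucagucggauguuu, of which 17 are the first bases of their 3p arms.

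Among reads placed at 1 locus, the Nfyc-hosted pair was the highest of the 3 loci in both libraries. Unassigned miR-30c reads are missing from this pair and from the chromosome 1 pair. The order and shares of the loci here and below therefore cover assigned reads only. Mir30e (ENSMUSG00000065409.1, chromosome 4, 120772606 to 120772697, minus strand, mm10) and Mir30c-1 (ENSMUSG00000065490.1, 120769534 to 120769622, minus strand) lie 2983 bases apart. Both fall in an intron of all 6 annotated Nfyc transcripts that span them, in the direction of that gene. Their summed level was 17732 CPM in replicate 1 and 19782 CPM in replicate 2, or 18757 ± 1450 CPM (SD, n = 2). Almost all of this assigned level was Mir30e, at 99.53% and 99.54% of the pair's counts. The pair held 49.9% of the counts of the 6 genes in replicate 1 (95% Wilson interval 49.5% to 50.2%) and 50.3% in replicate 2, or 50.1% ± 0.302 (SD, n = 2). Intervals here and below reflect counting error alone. They leave out the spread between replicates and treat each read as an independent molecule, so they may be too narrow.

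The pair on chromosome 1 came next. Mir30a (ENSMUSG00000065405.2, 23272269 to 23272339, plus strand) lies in no other annotated gene, and Mir30c-2 (ENSMUSG00000065567.1, 23291701 to 23291784, plus strand) lies within the exon of the long non-coding RNA Gm27028. They are 19361 bases apart, the widest gap of the 3 pairs. Their sum was 12303 CPM in replicate 1 and 13582 CPM in replicate 2, or 12943 ± 904 CPM (SD, n = 2). This was 34.6% of the family's counts in replicate 1 and 34.5% in replicate 2.

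The pair on chromosome 15 was the lowest. Mir30d (ENSMUSG00000065437.1, 68341208 to 68341289, minus strand) lies in an exon of the long non-coding RNA Gm20732, and 9 of its bases also overlap the unclassified transcript Gm37296. Mir30b (ENSMUSG00000065476.2, 68337415 to 68337510, minus strand) overlaps the exon of Gm26621 by 16 bases. The hairpins are 3697 bases apart. Their sum was 5528 CPM in replicate 1 and 5974 CPM in replicate 2, or 5751 ± 315 CPM (SD, n = 2), 15.5% and 15.2% of the family's counts.

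**Figure D1:**
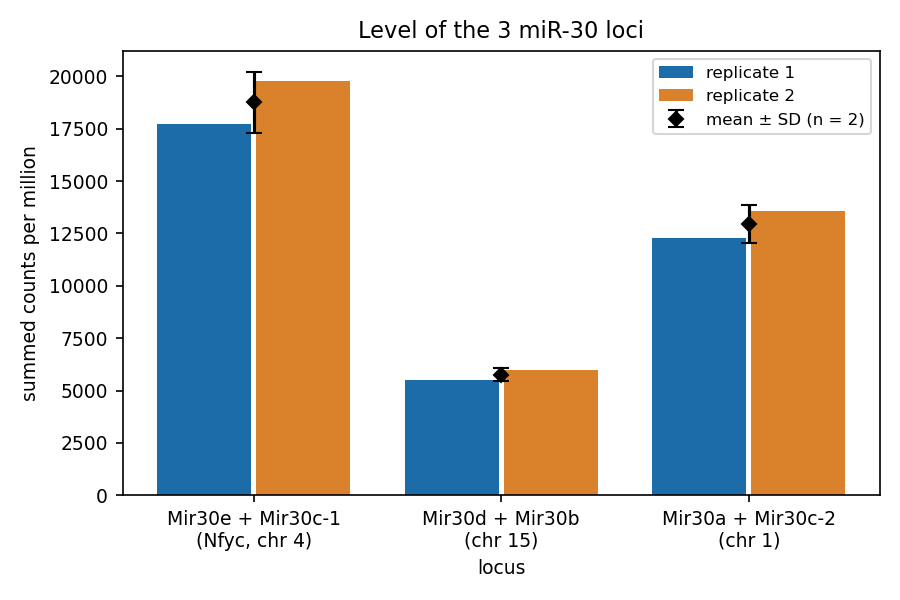
Summed CPM of the 2 genes at each miR-30 locus, from reads placed at 1 locus. A bar stands for each library and a diamond for the mean ± SD of the 2 libraries. The Nfyc-hosted pair stands at 17732 and 19782 CPM, above the chromosome 1 pair at 12303 and 13582 and the chromosome 15 pair at 5528 and 5974, with no overlap between loci.

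Ratios between the loci varied less between the libraries than the levels did. The Nfyc-hosted pair exceeded the Mir30b and Mir30d pair by 3.21-fold in replicate 1 and 3.31-fold in replicate 2, a log2 ratio of 1.70 ± 0.03 (SD, n = 2). It exceeded the Mir30a and Mir30c-2 pair by 1.44-fold and 1.46-fold, a log2 ratio of 0.53 ± 0.01. The chromosome 1 pair exceeded the chromosome 15 pair by 2.23-fold and 2.27-fold. All 3 ratios hold for reads placed at 1 locus, and how far unassigned miR-30c reads would change them was not tested. All of these differences were larger than the spread between replicates, but 2 libraries cannot reach an exact two-sided permutation p below 0.5, so the ratios carry no p-value. A small RNA read spans most of a mature strand, so counts were compared per gene. Per 100 bases of hairpin, which runs from 71 bases in Mir30a to 96 in Mir30b, the first log2 ratio was 1.54 ± 0.03 and the second 0.16 ± 0.01, with the same order of loci in both libraries.

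Among reads placed at 1 locus, each pair held 1 abundant and 1 scarce gene, and for both Mir30c genes the scarcity holds for such reads only. Mir30b and Mir30d had no sequence, so whether they also lack reads placed at several loci was not checked. Mir30e was counted 46016 times in replicate 1 and 84414 times in replicate 2, at 17648 and 19692 CPM. Mir30a had 31940 and 57995 counts, at 12250 and 13529 CPM. Mir30d had 14015 and 25069 counts, at 5375 and 5848 CPM. These 3 genes were each higher in replicate 2, and their ranges did not overlap. Together they held 99.18% of the family's counts in replicate 1 and 99.32% in replicate 2.

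The scarce partners were lower by well over an order of magnitude. Mir30b had 399 and 541 counts, at 153 CPM in replicate 1 (95% Wilson interval 139 to 169) and 126 CPM in replicate 2 (116 to 137). Mir30c-1 had 218 and 386 counts, at 83.6 CPM (73.2 to 95.5) and 90.0 CPM (81.5 to 99.5). Mir30c-2 had 140 and 226 counts, at 53.7 CPM (45.5 to 63.4) and 52.7 CPM (46.3 to 60.1). The order of these 3 genes was the same in both libraries and their ranges over the libraries did not overlap. For Mir30c-1 and Mir30c-2 that order covers only reads placed at 1 locus.

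Within the pairs, Mir30e exceeded Mir30c-1 by 211-fold in replicate 1 and 219-fold in replicate 2, a log2 ratio of 7.75 ± 0.04 (SD, n = 2). Mir30a exceeded Mir30c-2 by 228-fold and 257-fold, a log2 ratio of 7.92 ± 0.12. Mir30d exceeded Mir30b by 35.1-fold and 46.3-fold, a log2 ratio of 5.33 ± 0.28. The chromosome 15 pair was thus the least uneven in both libraries. In the other pairs the lower gene is a Mir30c gene, whose 5p reads can match both of its copies.

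**Figure D2:**
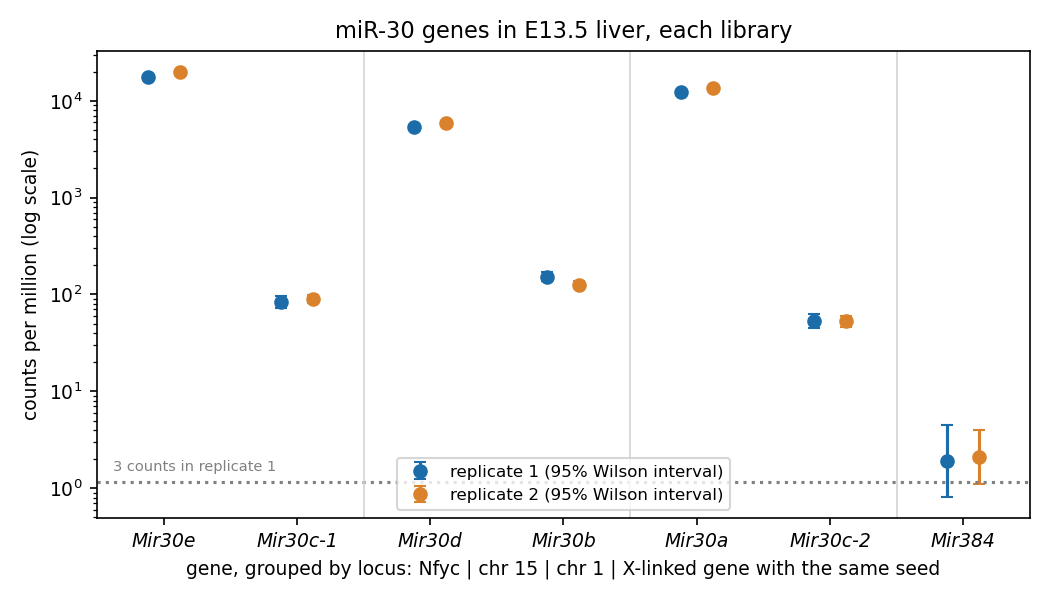
CPM of each miR-30 gene and of Mir384 in each library on a log scale, with 95% Wilson intervals for counting error and vertical lines between loci. At each miR-30 locus 1 gene lies at 5375 CPM or more and its partner at 153 CPM or less in both libraries, and Mir384 lies near the dotted line at 3 counts in replicate 1.

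By mean level over the 2 libraries, Mir30e ranked 15 of 1973 genes, at 18670 ± 1445 CPM (SD, n = 2). Mir30a ranked 23 at 12889 ± 905 CPM, and Mir30d ranked 45 at 5612 ± 334 CPM. Mir30b ranked 187 at 140 ± 19.0 CPM, Mir30c-1 209 at 86.8 ± 4.55 CPM and Mir30c-2 224 at 53.2 ± 0.688 CPM. The median of the 367 detected genes was 150 CPM, so 3 members lay above it and 3 below.

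**Figure D3:**
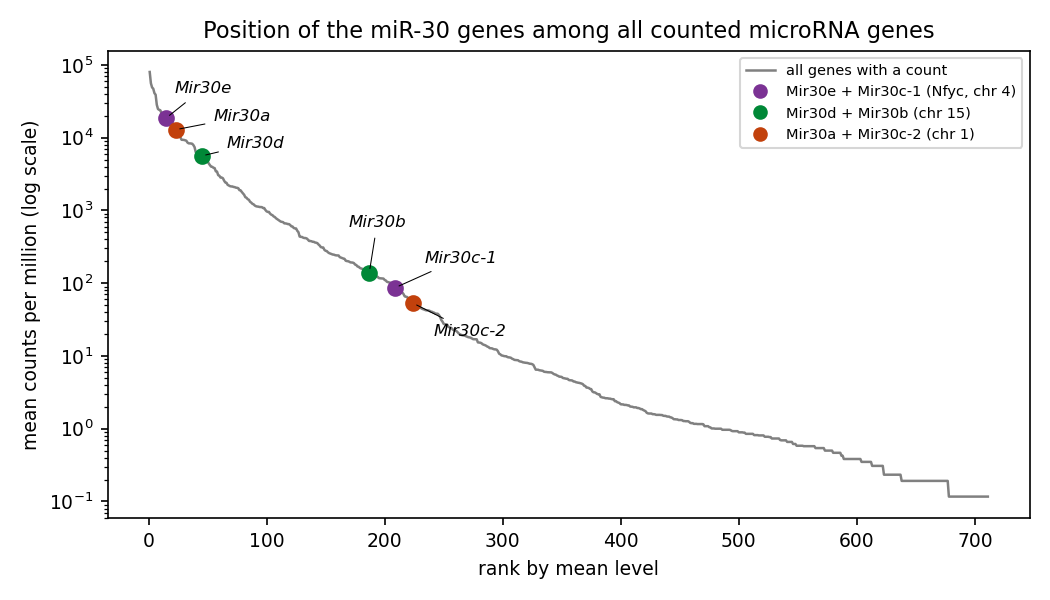
Mean CPM of the 711 microRNA genes with a count, on a log scale, against their rank, with the miR-30 genes marked in the colour of their locus. Mir30e, Mir30a and Mir30d sit at ranks 15, 23 and 45, while Mir30b, Mir30c-1 and Mir30c-2 sit at ranks 187, 209 and 224.

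Genes with the most similar levels were found by the distance of log2(CPM + 1) over the 2 libraries, which is a likeness in level only. Mir93, of the miR-106b-25 cluster, was nearest to Mir30e, at 16834 and 19686 CPM (distance 0.068), followed by the imprinted Mir127 (distance 0.159). Mir23a was nearest to Mir30a, at 13706 and 12215 CPM, and Mir101b to Mir30d, at 5426 and 5162 CPM. Near the scarce members stood Mir128-1 for Mir30b (152 and 115 CPM), the epithelial Mir200a for Mir30c-1 (76.7 and 86.1 CPM) and Mir181a-2 for Mir30c-2 (56.8 and 53.0 CPM).

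As a whole the 6 genes held 3.56% of counts in replicate 1 (95% Wilson interval 3.53% to 3.58%) and 3.93% in replicate 2 (3.92% to 3.95%), or 3.75% ± 0.267 (SD, n = 2). The 853 groups of genes that share a microRNA number, a naming convention that does not always follow the seed, were ranked by summed level. On this count miR-30 had rank 7 in replicate 1, rank 5 in replicate 2 and rank 7 by mean, at 37451 ± 2669 CPM (SD, n = 2). Among groups of more than 1 gene it had rank 3, after let-7 at 75468 ± 7002 CPM and miR-26 at 39017 ± 3917 CPM. These ranks rest on reads placed at 1 locus, while reads placed at several were about as many and may fall unequally on groups with copied arms. The miR-26 and miR-30 groups could not be ordered, since miR-26 was higher in replicate 1 (41787 against 35563 CPM) and lower in replicate 2 (36247 against 39338 CPM). The single genes Mir122, Mir126a, Mir17 and Mir335 ranked higher by mean, and miR-99 followed at 33362 ± 2115 CPM.

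Mir384, the X-linked gene that carries the family seed, was nearly absent. It had 5 counts in replicate 1 and 9 in replicate 2, at 1.92 CPM (95% Wilson interval 0.819 to 4.49) and 2.10 CPM (1.10 to 3.99), below the detection limit. Mir30f, whose mature sequence lacks the family seed, is annotated on the strand opposite Mir30e, over the same 92 bases. It has no row of its own in the tables used here, but the tables count reads on the strand opposite each gene. Opposite Mir30e there were 0 counts in both libraries, which allows up to 3 counts, or 1.15 CPM in replicate 1 and 0.700 CPM in replicate 2. The other 5 members likewise had 0 opposite-strand counts in both libraries.

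Predicted folding was computed for the 4 members with a sequence. The minimum free energy per base from RNAfold was -0.56 kcal/mol for Mir30e and -0.52 kcal/mol for Mir30a, against -0.39 kcal/mol for Mir30c-1 and -0.35 kcal/mol for Mir30c-2. Over the hairpins of 315 detected genes the median was -0.44 kcal/mol, with quartiles at -0.49 and -0.39. The Mir30e and Mir30a hairpins thus lay beyond the more stable quartile, and that of Mir30c-2 beyond the less stable one. With 4 hairpins this is a description, and the energies depend on the annotated ends. The less stable hairpins are those of the Mir30c genes, whose counts leave out reads placed at several loci, so their energies were not set against their levels. The arms were separated by 20 bases in Mir30e, 19 in Mir30a, 17 in Mir30c-2 and 16 in Mir30c-1.

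Genes with a copied arm elsewhere give the setting for the miR-30c counts. Of the 1973 genes, 916 had mature sequences in the RefSeq table. Copies were sought only within this table, which is not complete, so genes counted as having no shared arm may have copies it does not list. Among the 916, 53 genes had 1 of 2 arms identical to an arm of another locus, and 36 of these (67.9%) were detected, with a median of 52.9 CPM over those detected. Another 34 genes shared every listed arm, and 4 of them (11.8%) were detected. Without a shared arm were 829 genes, of which 289 (34.9%) were detected, with a median of 189 CPM over those detected. Mir30c-1, at 86.8 CPM, and Mir30c-2, at 53.2 CPM, lay at or above the median of the genes with 1 shared arm. The highest gene with 1 shared arm, Mir92-1 of the miR-17-92 cluster, reached 8365 CPM. Whether the shared arm lowers the counts of Mir30c-1 and Mir30c-2 was not tested.

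Other families spread over several loci also hold genes with and without a shared arm. A shared arm is identical over its whole length, so genes classed as having none can still share shorter runs. The hairpin of Mir29c had a run of 22 bases in common with that of Mir29b-1. Mir27a and Mir27b had 20 bases in common, as did Mir23a and Mir23b. In the miR-26 family, Mir26b had no shared arm and stood at 38964 ± 3913 CPM (SD, n = 2), while Mir26a-2 and Mir26a-1, which share an arm, stood at 42.4 ± 1.28 and 9.91 ± 2.80 CPM. In the miR-29 family, Mir29a stood at 1116 ± 106 CPM and Mir29c at 127 ± 6.85 CPM, above Mir29b-1 at 11.6 ± 3.39 CPM and Mir29b-2 at 0.617 ± 0.212 CPM. In the miR-23/27/24 clusters, Mir24-2 had a shared arm and was the lowest of the 5 genes counted, at 230 and 226 CPM. Close above it came Mir27a, without a shared arm, at 253 and 228 CPM. Without a shared arm, Mir27b at 702 ± 25.2 CPM also lay far below Mir23a at 12960 ± 1055 CPM. Summed, the miR-30 family at 37451 CPM lay above the miR-23/27/24 clusters at 21537 ± 1013 CPM and the miR-29 family at 1255 ± 96.3 CPM in both libraries. These families were compared as values only, and no test of a difference was made.

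**Figure D4:**
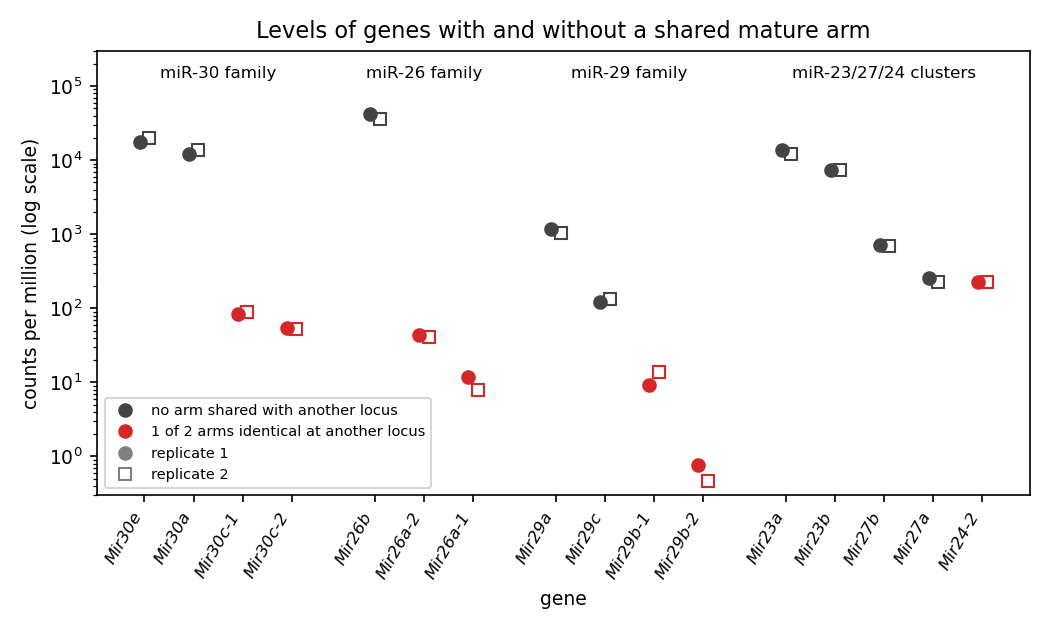
CPM on a log scale of the miR-30 genes with a RefSeq sequence and of 3 comparison families, with filled circles for replicate 1 and open squares for replicate 2. Among the genes shown, those with an arm identical to one at another locus (red) lie below the others (dark grey) in the miR-30, miR-26 and miR-29 families. Mir24-2 is the lowest of its list and lies close to Mir27a. Genes in dark grey can still share shorter runs with other loci. Mir30d and the scarce Mir30b, at 140 CPM, had no sequence to class and are not shown.

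For each gene, the division of its counts between the libraries was set against that of the totals (exact binomial test, two-sided), with Benjamini-Hochberg adjustment over all genes with a count. This test compares 2 libraries, not conditions, and it assumes counting error only. Of the 6 members, 4 were called at an adjusted p under 0.05, where 20.1% of the 711 genes tested were called. Among the 99 genes at 1000 CPM or more, 75.8% were called, and among the 59 genes from 50 to 200 CPM, 39.0%. The 3 abundant members fall in the first of these ranges and the 3 scarce ones in the second.

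Mir30e was higher in replicate 2 by 0.16 in log2 (95% interval 0.14 to 0.17, adjusted p = 9.35e-79, exact binomial test). Mir30a was higher by 0.14 (0.12 to 0.16, adjusted p = 5.64e-45, exact binomial test) and Mir30d by 0.12 (0.09 to 0.15, adjusted p = 1.72e-14, exact binomial test). These differences of 1.12-fold, 1.10-fold and 1.09-fold were below the median of 1.13-fold over the 367 detected genes. That median includes genes with far fewer counts and more counting error, and no median was taken over genes of like level. The leading genes of the 3 loci were thus all higher in the same library, by 0.16 or less in log2.

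Mir30b was the member that was called in the other direction. It was lower in replicate 2 by 1.21-fold, a log2 difference of -0.28 (95% interval -0.47 to -0.09, adjusted p = 0.0213, exact binomial test). With TMM library sizes this call was lost (adjusted p = 0.0508, exact binomial test). Mir30c-1 differed by 0.11 (-0.14 to 0.35, adjusted p = 0.629, exact binomial test) and Mir30c-2 by -0.03 (-0.34 to 0.29, adjusted p = 1.00, exact binomial test), and neither was called. Their intervals leave room for differences as large as that of Mir30b.

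Set against the spread between replicates, the differences were small. The biological coefficient of variation over all genes with a count was 13.6% (edgeR common dispersion), which corresponds to an SD of 0.28 for a log2 difference between 2 libraries. The differences of Mir30e, Mir30a, Mir30d, Mir30c-1 and Mir30c-2 lay within it, and that of Mir30b lay at its edge. For the whole family the difference was 0.15 in log2, or 1.11-fold.

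**Figure D5:**
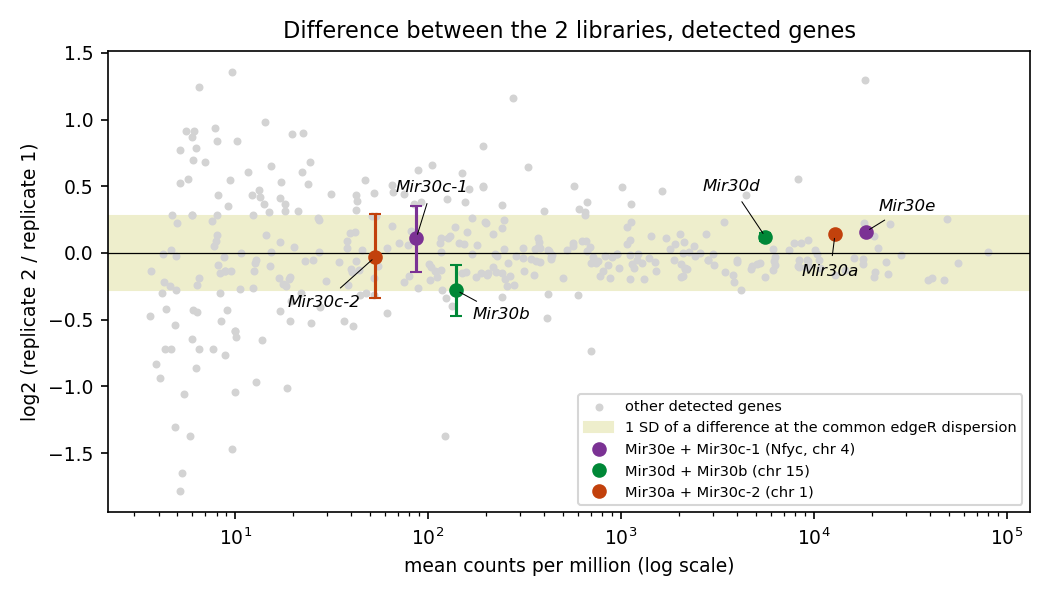
Log2 ratio of replicate 2 to replicate 1 against mean CPM (log scale) for the 367 detected genes, with the miR-30 genes coloured by locus, 95% exact binomial intervals for counting error, and a band of 1 SD (0.28) from the common edgeR dispersion. Mir30e, Mir30a and Mir30d lie slightly above 0 with narrow intervals, and Mir30b lies at the lower edge of the band.

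Markers of the cell types expected in fetal liver were present in both libraries, and by summed level the erythroid list differed most between them. The hepatocyte list, led by Mir122, summed to 84575 and 85387 CPM, and the endothelial Mir126a stood at 57502 and 54545 CPM. The mesenchymal list summed to 24825 and 23859 CPM and the leukocyte list to 11567 and 12279 CPM. Mir143, at 18537 and 17525 CPM, made up most of the mesenchymal sum. It was lower in replicate 2, as were Mir140, Mir145a and Mir199a-1, while Mir214 and Mir199a-2 were higher. Mir199a-1 had only 7 and 4 counts. Most of the leukocyte sum was Mir223, at 10021 and 10163 CPM. Mir342 at 1379 and 1902 CPM and Mir155 at 136 and 189 CPM were higher in replicate 2. Mir150 was lower there, at 31.4 and 23.8 CPM, and Mir142b had 1 and 4 counts. Mir142, also on the leukocyte list, was not found under that symbol. Of the 5 erythroid symbols listed, 3 were found, with a sum of 17989 CPM in replicate 1 and 33035 CPM in replicate 2. Within this list Mir451a stood at 10750 and 26342 CPM, Mir144 at 6405 and 5873 CPM and Mir486 at 834 and 820 CPM. The sum was thus higher in replicate 2 through Mir451a alone, and the other 2 genes were slightly lower there. By the median log2 difference of its genes, the leukocyte list differed most among these lists, at 0.46 against -0.02 for the erythroid list. The neural list stood at 0.60, but from Mir9-3 alone, at 8 and 20 counts. The miR-30 sum was also higher in replicate 2, and the part of the cell composition in the miR-30 levels was not tested. Of 5 neural genes with a row, 4 had 0 counts. Since the Mir124a and Mir9 genes of this list are copies of the same microRNAs at several loci, whose reads the tables may leave unassigned, these counts do not serve as a negative control. In bulk tissue, fewer cells that make a microRNA and less of it per cell cannot be told apart.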

How the data were processed

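The authors deposited, for each library, a table of raw read counts per microRNA gene against mm10 and GENCODE M4 (per the labels and file lists). Aligner and counter were not given in the sources used here. In every table stand counts on both strands, on the strand of the gene and opposite to it. Rows for unmapped reads, reads mapped to several places (36.7% and 32.0% of reads) and reads outside genes entered no total or test. Gene-strand counts were divided by their total and multiplied by 1000000. Names and coordinates came from GENCODE M21 (1894 of 1973 genes matched by identifier) and sequences from RefSeq, GRCm38.p6. The libraries came from separate biosamples, and the p-values compare these libraries against counting error only.

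The library test was a two-sided exact binomial test with Benjamini-Hochberg adjustment over 711 genes. It was tried on simulated Poisson counts only. These hold counting error and no further spread between replicates, so they cannot show how the test behaves on these libraries. Dispersion and TMM came from edgeR 4.0.16, size factors from DESeq2 1.42.0, folding from ViennaRNA 2.7.2, the rest from Python 3.11.15 with scipy 1.17.1. Named genes were all members, genes with the family seed, the nearest genes by level (up to 2 a member), up to 4 genes of each comparison list and the leading families by number. Mir92-1 and Mir24-2 fall outside this rule and were named after their values were seen. Mir30f, annotated opposite Mir30e, is also outside it, and the cell type markers came from lists of their own. Members and lists were chosen with earlier results of these data known.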

Additional observations from a re-analysis of the deposited data

How the results depend on the processing

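The order of the 3 loci and of the 6 genes did not change under any alternative run for it. Counts from both strands and library scaling could not change it, since no member has opposite-strand counts and scaling acts on a whole library. Per 100 bases of hairpin it could have changed and did not. Every setting of this order left out reads placed at several loci. With counts from both strands the total grew, as no member has opposite-strand counts, and the family share fell from 3.75% to 3.35%. The loci then stood at 16797 CPM (Nfyc), 11590 CPM (chromosome 1) and 5150 CPM (chromosome 15). As a share of all mapped reads, including those mapped to several places, the family held 1.64%. Per 100 bases of hairpin, which was added after seeing the data, the log2 ratio of the Nfyc-hosted pair to the chromosome 15 pair was 1.54 and to the chromosome 1 pair 0.16, Mir30e to Mir30c-1 was 7.70 and Mir30a to Mir30c-2 was 8.16. Under TMM and DESeq2 scaling, without the Mir30c genes and without either library, no level or ratio that was run moved by more than 1 SD. Leaving out either library always keeps a mean of 2 within that limit. Scaling cannot change a ratio within a library and was run on levels only. Leaving out the Mir30c genes takes away little, since Mir30e and Mir30a hold 99.53% or more of their pairs' counts. It does not address miR-30c reads placed at several loci. The count of called members ran from 3 (TMM) to 4. The log2 difference of Mir30c-2 between the libraries, -0.03, became 0.00 with both scalings and was called under none. The adjusted p of Mir30b ran from 0.0113 to 0.0508 (exact binomial test). No paired analysis was possible because there is only 1 group. Depth limits Mir384, at 5 and 9 counts, and the intervals of the scarce members.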
